A study of Mus musculus with 10 samples.

Results

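The genes described here are Dppa2, Dppa3, Dppa4, Utf1 and Tcl1, 5 of the 20663 genes tested on these arrays. They were chosen by name, as genes known for their expression in pluripotent cells, through every probe whose gene name or accession gives one of these symbols. Each gene had 1 probe at 1 spot, and all 5 probes were well above background on all 10 arrays, so none was lost to the filter on dim probes. The cells were J1, an established mouse embryonic stem cell line, and total RNA was taken 96 hours (day 4) after transfection of a small interfering RNA (siRNA). The siRNA was non-targeting (NT) or directed against Ino80, Ino80b, Ino80c or Ino80e, subunits of the INO80 chromatin-remodelling complex, of which Ino80 is the ATPase. All groups shared the cell line, the maintenance in ESGRO medium and the M15 medium used for transfection. Each of the 5 groups had 2 samples, described as biological replicates in the study's design. The labels do not say how many cultures or siRNA sequences stand behind a sample, and a single cell line was used.

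Dppa2 and Dppa4 lie next to each other in the mouse genome and encode SAP-domain proteins that bind DNA together. In embryonic stem cells they are known for keeping the promoters of developmental genes open to later activation and for switching on genes of the early embryo such as Zscan4. Dppa3, also called Stella or PGC7, is a maternal protein that guards the maternal genome in the zygote and keeps Uhrf1, the adaptor of maintenance DNA methylation, away from chromatin. Utf1 is a chromatin protein and a classical target of Oct4 and Sox2 that limits the loading of Polycomb repressive complexes. Tcl1 is a coactivator of the kinase Akt and a target of Oct4.

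Every level below rests on 1 stretch of 60 bases per gene, and these stretches are shown because they define what was measured. All 60 bases are given for Utf1, whose probe held no stop triplet in any of the 3 forward reading frames. The first 30 bases are given for the other probes, 5′ to 3′, in lower case and with no part marked.
Dppa2: aaatgccctacccccaaatatgccgccgta
Dppa4: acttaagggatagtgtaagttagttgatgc
Dppa3: taacctttaaattgtagataggatgcacaa
Utf1: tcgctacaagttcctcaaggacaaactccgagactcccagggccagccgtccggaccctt
Tcl1: agatcagccatcactcaaggtgttgtgcct

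On the mouse build mm7 the scanner files place the Dppa2 probe at chr16:48078749-48078808 and the Dppa4 probe at chr16:48053770-48053829, both on the plus strand. The Dppa3 probe lies at chr6:122666937-122666996 and the Utf1 probe at chr7:136358008-136358067, also on the plus strand. The Tcl1 probe lies at chr12:102711536-102711595 on the minus strand. Whether a probe falls in coding sequence or a UTR was not looked up, since no annotation of that build was used here. The share of G and C ran from 35.0% for Dppa3 to 60.0% for Utf1. No other probe on the array shared a run of 20 bases with any of the 5. RefSeq names 1 pseudogene of Dppa3 and none of the other genes, and whether it contributes to the Dppa3 signal was not tested.

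The arrays were of similar quality. On each array 66.4% to 79.0% of probes exceeded background clearly, no spot was saturated, and replicate arrays correlated across genes at r = 0.987 to 0.993. The siRNA targets served as a check of the labels. Ino80 was at 43.6% of NT in its knockdown, Ino80b at 24.9% and Ino80c at 19.7%, and these targets fell (limma, adjusted p = 0.0041, 0.028 and 0.0107). Ino80e was at 43.4% of NT in its own knockdown (limma, adjusted p = 0.0815), which did not pass the threshold of 0.05. Both NT arrays were alone on slide 1, Ino80 and Ino80b shared slide 2, and Ino80c and Ino80e shared slide 3. For every comparison with NT, slide and knockdown therefore cannot be told apart. The pairs Ino80 with Ino80b and Ino80c with Ino80e lie within a slide.

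Of 10 embryonic stem cell markers, 9 were measured and all 9 were well above background in all groups, with Fgf4 not on the array under that symbol. Their summed level, in multiples of the array's 75th percentile, was 599 to 627 with NT and 411 to 502 with Ino80 siRNA. It was 500 to 584, 579 to 588 and 653 to 729 with Ino80b, Ino80c and Ino80e siRNA. Dppa5a and Zfp42, at 8.44 and 6.98 with NT on the log2 scale, weigh most in this sum, and neither was called against NT. The median log2 fold change of the 9 markers was -0.63, -0.49, -0.39 and -0.30 with Ino80, Ino80b, Ino80c and Ino80e siRNA, beside 0.17, 0.13, 0.25 and 0.19 for all genes. Of these markers 4, 3 and 2 fell with Ino80, Ino80b and Ino80c siRNA and none with Ino80e siRNA, led by Esrrb, Nanog, Pou5f1 and Sall4. Across 4 other scalings 4 to 5, 2 to 5, 2 to 5 and 0 to 2 of them fell with Ino80, Ino80b, Ino80c and Ino80e siRNA. The summed level of fibroblast (feeder cell) markers was 8.25 to 9.74 with NT and 20.9 to 22.0 with Ino80 siRNA, where 5 of 11 rose, led by Dcn and Tagln. It was 11.0 to 12.1 after Ino80b, 12.6 to 14.4 after Ino80c and 9.64 to 10.3 after Ino80e knockdown, where 2, 3 and 0 rose. Under 4 other scalings 4, 0 to 1, 1 to 2 and 0 fibroblast markers rose with Ino80, Ino80b, Ino80c and Ino80e siRNA. Lum and Postn were not well above background with NT or Ino80 siRNA. Primitive endoderm markers summed to 6.47 to 6.51 with NT and to 1.76 to 1.93 with Ino80 siRNA, where all 9 tested fell, among them Gata6, and Pdgfra was not well above background with Ino80 siRNA. They summed to 2.80 to 3.34, 3.86 to 4.52 and 6.27 to 6.90 after Ino80b, Ino80c and Ino80e knockdown, where 7, 2 and 0 fell. Foxa2 went the other way with Ino80b siRNA, at 1.35 ± 0.32, and was not called (limma, adjusted p = 0.0526). With 4 other scalings 8 to 9, 7, 2 to 4 and 0 primitive endoderm markers fell with Ino80, Ino80b, Ino80c and Ino80e siRNA. There 0 to 1 rose with Ino80b siRNA and 0 to 1 with Ino80e siRNA. Trophectoderm markers summed to 20.4 to 25.2 with NT and to 49.1 to 65.2 with Ino80 siRNA, where 4 of 9 rose (Krt18, Krt7, Krt8 and Cdx2). Krt18 and Krt8, at log2 levels of 5.15 and 4.06 with Ino80 siRNA, weigh most in this sum. Hand1, Gata3, Eomes, Ascl2 and Tfap2c were not called. Under 4 other scalings 2 to 4 rose with Ino80 siRNA. The sums were 32.3 to 38.4, 26.6 to 26.7 and 27.9 to 37.0 after Ino80b, Ino80c and Ino80e knockdown. There only Cdx2 with Ino80c siRNA rose, under none of the other scalings. No mesoderm marker was called in any knockdown, and of the neuroectoderm markers Nes rose with Ino80 siRNA. Ncam1 was called lower there by its brightest probe, at -1.45, but its other kept probes gave -1.56 to 1.26, so its probes disagreed. The part of these shifts in the results below was not tested. RNA was taken from whole cultures, so fewer cells expressing a gene and less RNA of it per cell cannot be told apart.

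Levels are log2 intensities relative to the 75th percentile of the same array, where 0 is that percentile. Differences are log2 fold changes, knockdown minus NT, with the standard error of a limma fit over the 10 arrays, and a gene is called at a Benjamini-Hochberg adjusted p under 0.05 over all 20663 genes. With Ino80 siRNA, 1 of the 5 genes rose (Dppa3) and 1 fell (Tcl1), where 12.2% of all genes were called, 7.49% as higher and 4.76% as lower. Tcl1 alone was called with Ino80b siRNA, as lower, against a background of 6.41% (2.67% lower). It was again Tcl1 alone in the Ino80c knockdown, as lower, against 6.28% (1.59% lower). With Ino80e siRNA none was called, and neither was any other gene (0%), although 5899 genes had an unadjusted p under 0.05, and the lowest adjusted p was 0.0535. The median difference of all genes from NT was 0.17, 0.13, 0.25 and 0.19 with Ino80, Ino80b, Ino80c and Ino80e siRNA, so a gene at 0 on this scale lies below the typical gene. This median depended on the scaling. With 4 other scalings it was smaller, at 0.043 to 0.0797, 0.00264 to 0.0784, 0.0135 to 0.093 and 0.00248 to 0.0908 in the same order. The 4 comparisons share the NT arrays and are not independent of each other.

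**Figure D1:**
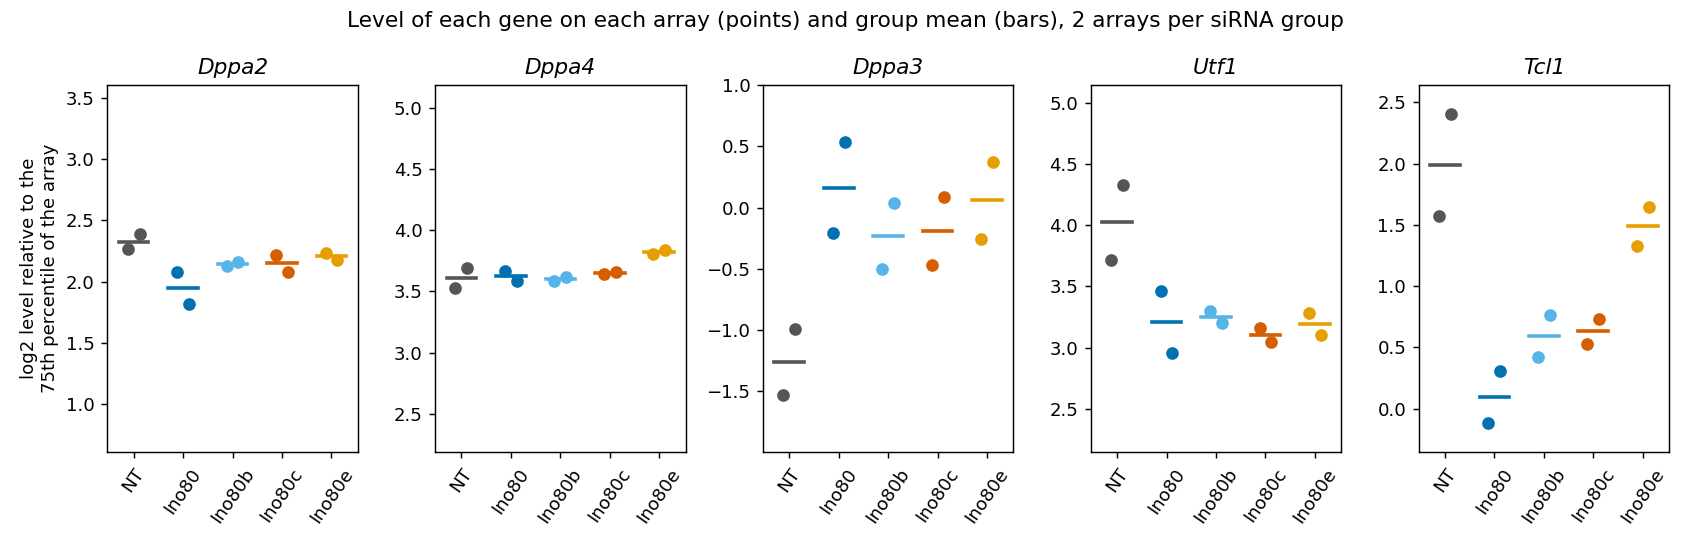
Level of each of the 5 genes on each array (points, log2 relative to the array's 75th percentile) with the group mean (bars), for NT and the 4 knockdowns, 2 arrays per group; every panel spans the same range of log2 units. Dppa3 is lower on both NT arrays than on all 8 knockdown arrays, Utf1 and Dppa2 are higher on both NT arrays than on all knockdown arrays, and Tcl1 with Ino80e siRNA reaches the NT range. In single comparisons with NT, 54% to 60.2% of all genes had arrays that did not overlap.

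Tcl1 had the largest differences of the 5 genes. Its level was 1.57 and 2.41 on the NT arrays, -0.12 and 0.31 with Ino80 siRNA, 0.42 and 0.77 after Ino80b knockdown, 0.53 and 0.73 after Ino80c knockdown, and 1.33 and 1.65 after Ino80e knockdown. All 6 arrays of the first 3 knockdowns lay below both NT arrays, while the higher Ino80e array lay above the lower NT array. Arrays did not overlap those of NT for 54%, 58.4% and 60.2% of all genes with Ino80, Ino80b and Ino80c siRNA. In unscaled intensity, the NT arrays read 2525 and 4549 and the Ino80 arrays 865 and 1036.

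Tcl1 fell with Ino80 siRNA by 1.89 ± 0.30 on the log2 scale, to 26.9% of NT (95% interval 16.5% to 43.9%; limma, adjusted p = 0.0123). Only 0.576% of all genes had a lower log2 fold change in that comparison. It fell with Ino80b siRNA by 1.39 ± 0.30, to 38.0% of NT (23.3% to 62.1%; adjusted p = 0.0436), and with Ino80c siRNA by 1.36 ± 0.30, to 39.0% of NT (23.9% to 63.7%; adjusted p = 0.0464). With Ino80e siRNA the difference was -0.50 ± 0.30, or 70.8% of NT with an interval from 43.4% to 115.6% (adjusted p = 0.307).

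The call with Ino80 siRNA held in 20 of 21 alternative settings, including the 10 fits that left out 1 array. It was lost when only the 4 arrays compared were fitted (adjusted p = 0.121). The calls with Ino80b and Ino80c siRNA held in 8 and 7 of 21 settings, and each was lost in 9 of the 10 fits without 1 array. Without NT replicate 1 both held, and without NT replicate 2 neither did. When p-values were adjusted over all kept probes instead of genes, the Ino80c difference had an adjusted p of 0.0502.

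Between knockdowns, Tcl1 differed most between Ino80 and Ino80e siRNA, at -1.40 ± 0.30 (adjusted p = 0.0585, on different slides). Within a slide, Ino80c minus Ino80e was -0.86 ± 0.30 (unadjusted p = 0.0236, adjusted p = 0.359) and Ino80 minus Ino80b was -0.50 ± 0.30 (adjusted p = 0.665). Ino80b minus Ino80e was -0.90 ± 0.30 (adjusted p = 0.244). No pair of knockdowns passed the threshold for any of the 5 genes among the 6 pairs compared. Of all genes, 0.0678% were called for Ino80 against Ino80b and 0.0339% for Ino80c against Ino80e. In the pairs on different slides the share was 1.04% for Ino80 against Ino80c, 3.08% for Ino80 against Ino80e, 0.029% for Ino80b against Ino80c and 0.697% for Ino80b against Ino80e. The moderated F test of limma over the 4 knockdowns, which leaves out NT, called 1.52% of all genes and gave an adjusted p = 0.167 for Tcl1 (0.0132 unadjusted). That test spans slides 2 and 3, so it does not separate slide from knockdown either. For the other 4 genes the adjusted p of that F test was 0.584 or higher. From high to low, the mean levels of Tcl1 stood in the order NT, Ino80e, Ino80c, Ino80b and Ino80. Of the neighbours in that order, NT and Ino80e overlapped, as did Ino80c and Ino80b, and no neighbouring pair differed by the test.

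Dppa3 was lowest with NT, and 1 of its 4 differences passed the test in the fit that did not pair samples. Its level was -1.53 and -1.0 on the NT arrays, -0.21 and 0.53 with Ino80 siRNA, -0.50 and 0.03 after Ino80b knockdown, -0.47 and 0.09 after Ino80c knockdown, and -0.25 and 0.37 after Ino80e knockdown. No knockdown array overlapped the NT arrays. In unscaled intensity, the NT arrays read 294 and 431 against a local background of 60 and 61, and the knockdown arrays read 488 to 1209.

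Dppa3 rose with Ino80 siRNA by 1.42 ± 0.37 on the log2 scale, 2.68-fold (limma, adjusted p = 0.0492). The differences with Ino80b, Ino80c and Ino80e siRNA were 1.03, 1.07 and 1.32 (± 0.37 each), with adjusted p-values of 0.124, 0.110 and 0.0959. The Ino80 call held in 7 of 21 settings. Among the fits without 1 array it held only without Ino80 replicate 1. Separation from NT was common: the arrays did not overlap for 54% of all genes with Ino80 siRNA, and for 58.4%, 60.2% and 57.8% in the Ino80b, Ino80c and Ino80e knockdowns. The array numbered 2 was the higher one for Dppa3 in all 5 groups, by 0.53 to 0.74. With the replicate number as a block, the Ino80b, Ino80c and Ino80e differences of Dppa3 were called too, as given in the closing section. In each of the 4 knockdowns more than 94% of genes had a lower log2 fold change than Dppa3. Between knockdowns the largest difference of Dppa3 was 0.40 (Ino80 minus Ino80b, adjusted p = 0.785), with a 95% interval from -0.47 to 1.27.

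Utf1 lay lower in all knockdowns than in NT, by a similar amount, and was not called in any. Its level was 3.72 and 4.33 on the NT arrays, 3.46 and 2.96 with Ino80 siRNA, 3.30 and 3.20 after Ino80b knockdown, 3.16 and 3.05 after Ino80c knockdown, and 3.28 and 3.1 after Ino80e knockdown. All 8 knockdown arrays lay below both NT arrays, and the NT arrays differed by 0.61 from each other. In single comparisons the arrays did not overlap those of NT for 54% to 60.2% of all genes. The share of genes separated on all 8 arrays together was not computed.

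The differences from NT were -0.81, -0.77, -0.92 and -0.83 (± 0.24 each) with Ino80, Ino80b, Ino80c and Ino80e siRNA, or 57.0%, 58.5%, 52.8% and 56.2% of NT. Their adjusted p-values were 0.0691, 0.0935, 0.0650 and 0.10. Under 3 to 5 of the 21 alternative settings they passed the threshold, among them the authors' value table for Ino80b, Ino80c and Ino80e siRNA. The means of the 4 knockdowns spanned 0.15. Within a slide, Ino80 minus Ino80b was -0.04 with an interval from -0.61 to 0.53, and Ino80c minus Ino80e was -0.09 with an interval from -0.66 to 0.48.

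Dppa2 and Dppa4, which encode partner proteins, had the smallest differences from NT. The level of Dppa2 was 2.26 and 2.39 with NT, 2.08 and 1.82 with Ino80 siRNA, 2.13 and 2.16 after Ino80b knockdown, 2.22 and 2.08 after Ino80c knockdown, and 2.23 and 2.18 after Ino80e knockdown. Both NT arrays were above all 8 knockdown arrays, by a small margin. Such separation was common among all genes, at 54% to 60.2% in single comparisons. With Ino80 siRNA the difference was -0.38 ± 0.14, or 76.9% of NT (95% interval 61.6% to 95.9%; adjusted p = 0.109). With Ino80b, Ino80c and Ino80e siRNA it was -0.18, -0.18 and -0.12 (± 0.14 each), and no adjusted p was below 0.386.

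Dppa4 had levels of 3.53 and 3.69 with NT, 3.66 and 3.58 with Ino80 siRNA, 3.59 and 3.62 after Ino80b knockdown, 3.64 and 3.66 after Ino80c knockdown, and 3.81 and 3.84 after Ino80e knockdown. The arrays of the first 3 knockdowns lay within the NT range and those with Ino80e siRNA lay above it, where 57.8% of all genes did not overlap NT. The differences were 0.01, -0.01, 0.04 and 0.21 (± 0.12 each), with adjusted p-values from 0.274 to 0.968. The 95% intervals ran from 83.3% to 122.0% of NT with Ino80 siRNA and from 95.5% to 140.0% with Ino80e siRNA. Differences of this size turned sign under other scalings of the arrays. Relative to the median gene they were -0.15, -0.14, -0.21 and 0.02.

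**Figure D2:**
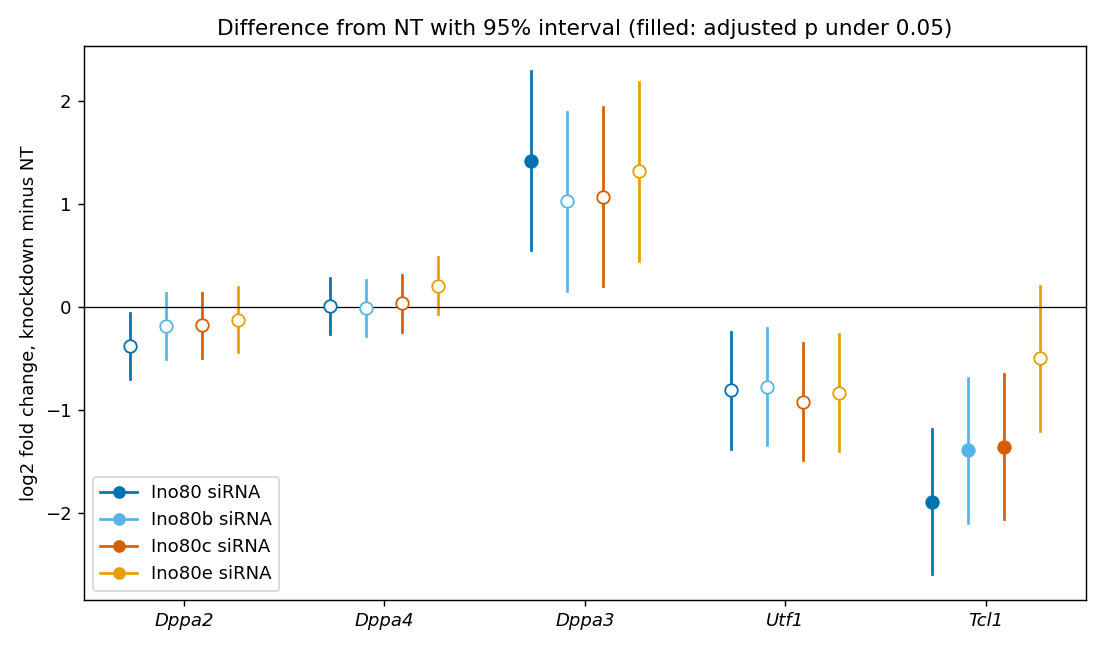
Log2 fold change against NT of each of the 5 genes with its 95% interval, in the 4 knockdowns (colours); filled points passed an adjusted p of 0.05. Tcl1 with Ino80, Ino80b and Ino80c siRNA and Dppa3 with Ino80 siRNA are filled, Utf1 lies between -0.77 and -0.92 throughout, and the intervals of Dppa4 all include 0.

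Relatives of these genes were examined by family. Of 8 such genes, 6 could be tested, and Tcl1b2, a Tcl1-like gene of the same cluster, was the only one called, in 1 comparison. It rose with Ino80c siRNA by 1.12 ± 0.22 (adjusted p = 0.0365). Its signal was dim, at mean log2 levels of -3.72 with NT and -2.60 with Ino80c siRNA. Under 4 other scalings it was called in 2 with Ino80c siRNA and in 2 with Ino80e siRNA. With Ino80, Ino80b and Ino80e siRNA its differences were 0.61, 0.75 and 1.45 (± 0.22 each) with adjusted p-values of 0.112, 0.082 and 0.0648. Tcl1 itself, far brighter at a mean log2 level of 1.99 with NT, was lower in the Ino80c comparison.

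The genes next to the 5 differed in how they behaved. Nanog, a core pluripotency factor, is the gene directly after Dppa3 in RefSeq order. It fell with Ino80, Ino80b and Ino80c siRNA by 1.35, 1.26 and 1.05 (± 0.20 each; adjusted p = 0.011, 0.0231 and 0.0354), and its difference with Ino80e siRNA was -0.30 (adjusted p = 0.359). Dppa3 thus lay above NT where Nanog lay below it, on the same arrays. Gdf3, on the other side of Dppa3 and also expressed in pluripotent cells, was not called, nor were Apobec1 and Slc2a3.

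Morc1, a germline repressor of transposons, is the gene directly after Dppa2. It fell with Ino80 siRNA by 1.79 ± 0.14 (adjusted p = 0.00215) and with Ino80b siRNA by 0.81 ± 0.14. With Ino80c and Ino80e siRNA it differed from NT by -0.27 and 0.05, the latter changing sign under other scalings. Nectin3, Cd96 and Trat1 near the same pair of genes were not called. Next to Utf1, Nkx6-2 fell with Ino80 siRNA, at a log2 fold change of -1.74 ± 0.25. Adam8 rose with Ino80 siRNA by 1.21 ± 0.22, and Kndc1 fell by 0.69 ± 0.12 with Ino80b siRNA. Tubgcp2 was not called. None of the 4 neighbours of Tcl1 was called, among them Tcl1b4 at -0.76 ± 0.25 with Ino80 siRNA (adjusted p = 0.0841).

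**Figure D3:**
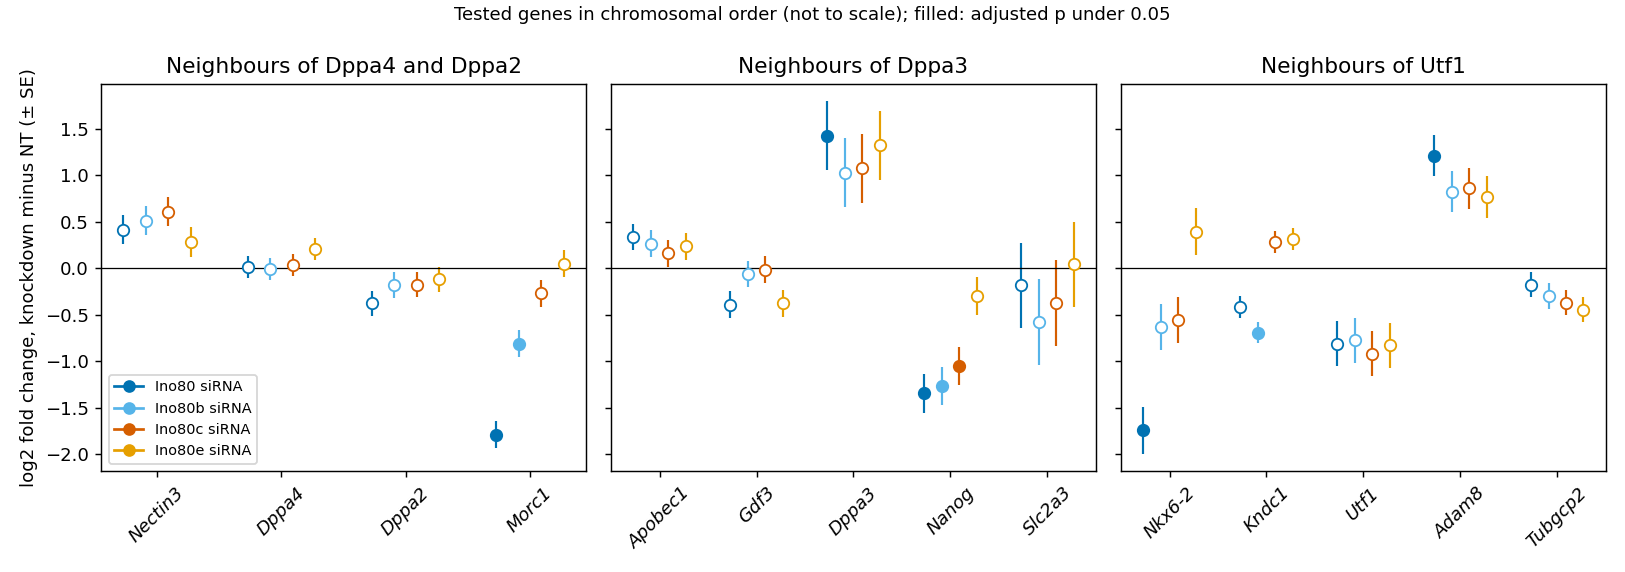
Log2 fold change against NT (± SE) of Dppa4 and Dppa2, Dppa3 and Utf1 with tested protein-coding genes beside them, in chromosomal order and not to scale; filled points passed an adjusted p of 0.05. Nanog lies below 0 next to Dppa3 above 0, and Morc1 reaches -1.79 with Ino80 siRNA beside Dppa2 at -0.38.

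Pluripotency transcription factors known to act upstream of such genes were given as a list of 15, of which 14 were tested. With Ino80, Ino80b and Ino80c siRNA 9, 7 and 6 of them fell and none rose, and with Ino80e siRNA none was called. Their median log2 fold change was -0.95, -0.68, -0.55 and -0.03, beside 0.17, 0.13, 0.25 and 0.19 for all genes. Tfcp2l1 fell by 2.58, 2.07 and 1.49 and Tbx3 by 2.54, 1.89 and 1.85 in the first 3 knockdowns, and Esrrb fell by 1.61, 1.49 and 1.35. A second probe of Esrrb gave smaller differences of -0.66, -0.93 and -0.67. Pou5f1, which encodes Oct4, fell with Ino80 and Ino80b siRNA by 0.74 and 0.72 (± 0.15 each). Its differences with Ino80c and Ino80e siRNA were -0.57 (adjusted p = 0.0644) and -0.48 (adjusted p = 0.107). Sox2, chosen for its role with Oct4 after its values were seen, lay at -0.13, -0.04, 0.07 and 0.17, not called, and the last pair of values changed sign under another scaling.

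Of 12 genes known to depend on Dppa2 and Dppa4, whose own differences are given above, 9 were tested. With Ino80, Ino80b and Ino80c siRNA 5, 4 and 5 of them rose and none fell, and with Ino80e siRNA none was called. Across 4 other scalings 3 to 5, 4, 3 to 4 and 0 to 1 of them rose with Ino80, Ino80b, Ino80c and Ino80e siRNA, and none fell. Their median log2 fold change was 0.58, 0.34, 0.77 and 0.51. Zscan4c, a gene of the 2-cell embryo known for a role in telomere maintenance, rose by 2.83, 2.24 and 2.23 (± 0.22 each), and its difference with Ino80e siRNA was 1.68 (adjusted p = 0.0648). Tcstv1 rose by 2.09, 1.96 and 1.68 and Tcstv3 by 1.97, 1.90 and 1.78, and Zfp352 by 1.29, 1.63 and 1.39. Slc25a31, named after its values were seen, was the fifth, with calls for Ino80 and Ino80c siRNA that were each kept under 1 of 4 other scalings. Zfp352 with Ino80c siRNA was not called under any of 4 other scalings, whereas Zscan4c, Tcstv1 and Tcstv3 were called in these 3 knockdowns under each of them. Zscan4 and Tcstv genes have near-identical copies, so these signals may come from any copy. Dux, Zscan4d and Zscan4f had no probe under those symbols.

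Partners of Dppa3 in DNA methylation and imprint protection were a list of 12, with 10 tested. Of these 1 rose and 3 fell with Ino80 siRNA, 1 rose and 2 fell with Ino80b siRNA, 2 rose and 2 fell with Ino80c siRNA, and none was called with Ino80e siRNA. Zfp57, which protects imprinted regions, fell by 2.73, 2.33 and 1.91 (± 0.29 each). Tet2, an enzyme that oxidises methylated cytosine, fell by 1.84, 1.60 and 0.90 (± 0.17 each). Trim28, the corepressor that works with Zfp57, fell with Ino80 siRNA by 0.84 ± 0.17, and Dnmt3a, a de novo methyltransferase, rose with Ino80c siRNA by 0.95 ± 0.22, a call kept under 2 of 4 other scalings. Under those scalings 0 to 2 of the list rose and 2 to 5 fell with Ino80c siRNA, and 0 to 2 fell with Ino80e siRNA. Uhrf1, the direct partner of Dppa3, and Dnmt1, the maintenance methyltransferase, are named for their roles after their values were seen. Uhrf1 lay at -0.26, -0.14, -0.23 and -0.06 and Dnmt1 at -0.24, -0.26, -0.31 and -0.25, with no call in any knockdown.

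**Figure D4:**
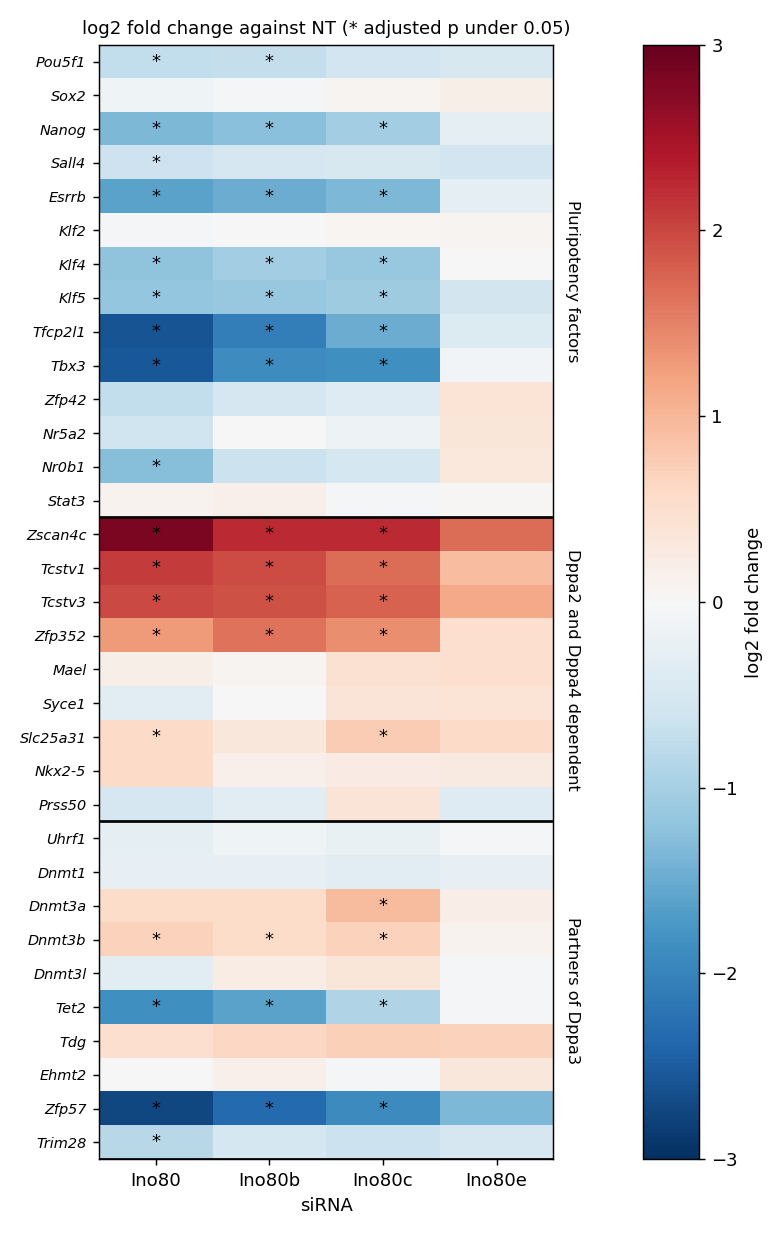
Log2 fold change against NT (colour scale) of the tested pluripotency factors, genes that depend on Dppa2 and Dppa4, and DNA methylation partners of Dppa3, in the 4 knockdowns (columns); asterisks mark an adjusted p under 0.05. Tfcp2l1, Tbx3 and Zfp57 are lower and Zscan4c, Tcstv1 and Tcstv3 are higher in the Ino80, Ino80b and Ino80c columns, and no asterisk stands in the Ino80e column.

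In the Akt pathway around Tcl1, 14 of 14 listed genes were tested. Of these 2 rose and 2 fell with Ino80 siRNA, 2 fell with Ino80b siRNA, 1 fell with Ino80c siRNA and none was called with Ino80e siRNA. Across 4 other scalings 2 to 4, 1 to 2, 1 to 4 and 0 to 2 fell with Ino80, Ino80b, Ino80c and Ino80e siRNA. The numbers that rose there were 0 to 2, 0 to 1, 0 and 0 to 1. Gsk3a, a kinase that Akt inhibits, fell by 1.22, 1.54 and 1.43 (± 0.28 each) with Ino80, Ino80b and Ino80c siRNA. Foxo3, a transcription factor that Akt keeps out of the nucleus, fell with Ino80 and Ino80b siRNA by 0.90 and 0.85 (± 0.19 each). Akt1 and Pik3ca were called higher with Ino80 siRNA, at 0.49 and 0.70, but a second probe of each gave -0.15 and -0.03, so their probes disagreed.

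Among 9 genes of the Polycomb and Arf circuit around Utf1, Cdkn2a, the locus of Arf and p16, rose with Ino80 and Ino80b siRNA by 1.26 and 1.10 (± 0.18 each; adjusted p = 0.00962 and 0.0256). Its differences with Ino80c and Ino80e siRNA were 0.37 and 0.62, not called. The Cdkn2a signal was dim, at mean log2 levels of -3.55 with NT, -2.28 with Ino80 siRNA and -2.44 with Ino80b siRNA. Eed, a Polycomb repressive complex subunit, fell with Ino80 siRNA by 0.54 ± 0.13. No other gene of this list was called here, whereas under 4 other scalings 1 to 2 rose and 1 to 4 fell with Ino80 siRNA, 1 rose and 0 to 1 fell with Ino80b siRNA, and none was called with Ino80c or Ino80e siRNA. Primordial germ cell markers, of interest since Dppa3 marks these cells too, were 9 tested. With Ino80 siRNA Ddx4 rose by 1.34, and Kit, Ifitm3 and Dnd1 fell by 1.66, 0.82 and 0.54. Kit also fell with Ino80b and Ino80c siRNA by 1.79 and 1.77, and Ddx4 rose with Ino80c siRNA by 1.0. Prdm1, Tfap2c, Nanos3, Dazl and Ifitm1 were not called in any knockdown. Across 4 other scalings 2 to 5, 0 to 2, 1 to 2 and 0 of these markers fell with Ino80, Ino80b, Ino80c and Ino80e siRNA. The numbers that rose there were 1, 0 to 1, 0 to 1 and 0 to 1. Of all genes, 12.2%, 6.41% and 6.28% were called with Ino80, Ino80b and Ino80c siRNA.

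The genes most alike to each of the 5 over the 10 arrays were taken by Pearson's r of the log2 level, as a description. The 10 arrays share the differences between groups and slides, and the 3 highest of 20663 values of r are high by selection. For Tcl1 they were 6720458D17Rik (r = 0.987), Rmnd5b and Sdhc. For Utf1 they were Atp6v0c (r = 0.995), Pip5k1c and Mettl1, and for Dppa3 Sulf2 (r = 0.984), Sil1 and Iqcb1. For Dppa2 they were Zbtb7c (r = 0.965), Ost4 and Ap1m1, and for Dppa4 Sema5b (r = 0.953), 4930503H13Rik and Usp33. None of the 5 genes was among the 3 most alike to another.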

How the data were processed

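The members and gene lists were chosen with earlier results of these data known. Agilent 1-colour arrays were read in the green channel, although the labels name Cy5. Per the file headers, the deposited processed intensity is background-subtracted on each array without scaling across arrays. The value table deposited by the authors has log2 values equal to the log2 mean signal plus 1 constant per array (column medians 6.76 to 6.87), a constant whose origin, and with it the table's scaling, stays unknown. That table was used as an alternative.

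Processed intensities were log2 transformed and the array's 75th percentile (666 to 940 units) was subtracted. Control spots and flagged outliers were left out, and a probe was kept if 1 group or more had it well above background on both arrays. A gene was represented by its brightest kept probe, named through RefSeq (GRCm38.p6) where the accession matched. limma (3.58.1, R 4.3.3) was fitted to 10 arrays with group as the only term (5 residual degrees of freedom), with two-sided Benjamini-Hochberg adjusted p-values. The number of arrays limits the precision. On simulated data for Ino80 against NT, 200 of 20663 genes were changed. Of those changed by a log2 fold change of 1, 19% were recovered, and of those changed by 2, 89%, with 3 false calls. In the data 12.2% of genes were called, a larger share than was changed in the simulation, so recovery there may differ.

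Named list genes were those called against NT, at most 4 a list by absolute log2 fold change; neighbours were the 2 nearest tested protein-coding genes on each side. Outside that rule, Slc25a31, Sox2, Uhrf1 and Dnmt1 were named after their values were seen, and Pou5f1 is named through the embryonic stem cell markers. Replicate numbers were checked for pairing: deviations from group means of same-numbered arrays correlated at 0.0041 to 0.321, over 0.1 in 8 of 10 pairs of groups. The labels do not say that the numbers pair samples, and the fit with group as the only term did not pair them. A difference shared by same-numbered arrays was therefore not removed in that fit. The replicate number as a block was fitted as an alternative. Alternatives are given in the closing section.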

Additional observations from a re-analysis of the deposited data

How the results depend on the processing

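Each knockdown against NT was refitted under 21 alternatives. With Ino80 siRNA 2 of the 5 genes were called, and 1 was called with median scaling, no filter on dim probes, the mean over probes or array weights, 4 with normexp background correction, 0 when only the 4 arrays compared were fitted, and 1 to 2 with 1 array left out. With Ino80b siRNA (1 called), 0 were called with median scaling, no filter, array weights or only the 4 arrays, 2 with normexp, the authors' table or a trended robust prior, and 0 to 2 with 1 array left out. With Ino80c siRNA (1 called), 0 were called with median scaling, no filter, the mean over probes, array weights or only the 4 arrays, 2 with normexp, the authors' table, probes well above background on all arrays or the trended prior, and 0 to 2 with 1 array left out. With Ino80e siRNA (0 called), 1 was called with normexp or the authors' table, 2 with the trended prior, and 0 to 0 with 1 array left out. The same-slide pairs had 0 calls throughout. With the replicate number as a block, 2, 2 and 1 genes were called with Ino80b, Ino80c and Ino80e siRNA, Dppa3 in each of them (limma adjusted p = 0.00923, 0.011 and 0.042).

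Signs turned only for differences that were not called. Dppa4 against NT was -0.10, -0.12 and -0.018 with quantile normalization (Ino80, Ino80c, Ino80e), -0.10 and -0.20 with median scaling (Ino80, Ino80c), -0.089, -0.14 and -0.031 with normexp, and -0.0045, -0.20 and -0.012 in the authors' table. With 1 array left out it was -0.069 to 0.093 (Ino80), -0.091 to 0.071 (Ino80b) and -0.043 to 0.12 (Ino80c). For Ino80 minus Ino80b, Utf1 was at 0.041, 0.063 and 0.12 with quantile, normexp and the authors' table and at -0.29 to 0.21 with 1 array left out, and Dppa4 at -0.042 with median scaling and -0.019 to 0.061 with 1 array left out. For Ino80c minus Ino80e, Dppa2 was at 0.0059 with quantile normalization. With 1 array left out that difference was -0.12 to 0.0092 for Dppa2, -0.56 to 0.063 for Dppa3 and -0.18 to 0.00088 for Utf1. The cause of these changes was not tested. Over all genes, the share called ranged from 0% to 23.7% with Ino80, 0% to 17.4% with Ino80b, 0% to 18% with Ino80c and 0% to 9.55% with Ino80e siRNA, leaving 1 array out aside. Applying the 4 other scalings to listed and neighbouring genes was chosen after seeing the data.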
